A study of Mus musculus with 23 samples.

Results

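Open chromatin was measured in 3T3-L1 cells 72 hours after transfection with siRNA against Kdm5c or with a non-targeting siRNA, called scramble here. The members were all peaks of the day 0 count table that lie outside the mitochondrial genome, 37051 nuclear peaks of 37054 peaks. They were counted in 3 libraries of the Kdm5c siRNA arm, numbered 1, 2 and 4, and in 4 libraries of the scramble arm, numbered 1 to 4. These 7 libraries are a part of the 23 libraries, in 6 groups, of the series. Both arms were 3T3-L1 preadipocytes, an established mouse line of fibroblast-like cells that can be turned into fat cells. Both received 50 nM siRNA with Lipofectamine RNAiMAX while sub-confluent, and nuclei were taken on day 0, the day from which differentiation is counted. All cells therefore share the line and the transfection, and no untransfected cells were among the 7 libraries. Nothing in the labels tells whether the replicates are separate cultures, so each p-value measures only the spread between these libraries, which may be technical.

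Kdm5c is an X-linked enzyme that removes methyl groups from lysine 4 of histone H3, a mark of promoters and enhancers. It works with repressor complexes, and in mouse neural cells it is known to help silence germline genes. ATAC-seq uses a transposase that inserts sequencing adapters into DNA free of nucleosomes, so reads pile up at open promoters and enhancers. A preadipocyte on day 0 has not yet switched on the fat cell genes. Cebpb and Cebpd act early in that programme, and Pparg and Cebpa act after them.

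Promoters of some genes named below are printed first, because their sequence features recur in the description of the open chromatin. None of their peaks passed the test between the arms described below. Each is the window of 250 bases before to 50 bases after the start of the gene, from RefSeq on GRCm38.p6, written 5′ to 3′ on the strand of the gene. Kdm5c is the targeted gene. Among the promoter peaks named below that have a window in the reference table, Hnrnpu had the smallest p of those lower with Kdm5c siRNA. Ddx21 had the smallest p of those higher. Rrm2 and Stag3 are members of gene lists with values above those of scramble. Mdm2 had one of the densest promoter peaks. The windows lie at chrX:152232977-152233276 (+) for Kdm5c, chr1:178337766-178338065 (-) for Hnrnpu and chr10:62602249-62602548 (-) for Ddx21. They lie at chr12:24708004-24708303 (+) for Rrm2, chr5:138280259-138280558 (+) for Stag3 and chr10:117710709-117711008 (-) for Mdm2. Capitals mark matches on either strand to the motifs spelled out after the sequences.
Kdm5c: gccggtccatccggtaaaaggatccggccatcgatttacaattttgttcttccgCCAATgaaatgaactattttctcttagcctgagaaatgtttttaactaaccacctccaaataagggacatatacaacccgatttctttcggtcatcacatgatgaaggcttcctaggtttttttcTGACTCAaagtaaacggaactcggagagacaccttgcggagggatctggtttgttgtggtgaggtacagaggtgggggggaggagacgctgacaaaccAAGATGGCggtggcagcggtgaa
Hnrnpu: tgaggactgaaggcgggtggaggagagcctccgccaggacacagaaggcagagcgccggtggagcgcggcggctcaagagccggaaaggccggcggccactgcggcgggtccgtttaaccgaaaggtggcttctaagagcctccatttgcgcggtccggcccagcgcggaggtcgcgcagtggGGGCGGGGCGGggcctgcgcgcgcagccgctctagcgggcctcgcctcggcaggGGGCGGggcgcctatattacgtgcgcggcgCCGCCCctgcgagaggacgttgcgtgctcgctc
Ddx21: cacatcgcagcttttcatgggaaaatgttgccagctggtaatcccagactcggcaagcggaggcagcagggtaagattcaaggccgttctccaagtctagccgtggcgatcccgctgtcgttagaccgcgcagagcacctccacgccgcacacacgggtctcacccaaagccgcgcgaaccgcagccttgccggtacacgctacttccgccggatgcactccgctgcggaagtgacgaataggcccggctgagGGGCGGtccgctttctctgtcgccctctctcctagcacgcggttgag
Rrm2: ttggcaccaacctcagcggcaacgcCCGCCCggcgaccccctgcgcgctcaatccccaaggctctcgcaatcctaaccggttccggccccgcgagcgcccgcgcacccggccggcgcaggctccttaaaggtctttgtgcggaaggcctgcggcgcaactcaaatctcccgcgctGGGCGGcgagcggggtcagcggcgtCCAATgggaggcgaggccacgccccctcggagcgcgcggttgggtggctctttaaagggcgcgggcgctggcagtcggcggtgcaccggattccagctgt
Stag3: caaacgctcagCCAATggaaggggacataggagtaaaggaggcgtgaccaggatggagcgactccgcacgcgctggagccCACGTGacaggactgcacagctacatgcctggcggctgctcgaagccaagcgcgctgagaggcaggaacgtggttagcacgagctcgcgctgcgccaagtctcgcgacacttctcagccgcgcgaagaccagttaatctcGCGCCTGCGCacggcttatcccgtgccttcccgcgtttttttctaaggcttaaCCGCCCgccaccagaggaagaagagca
Mdm2: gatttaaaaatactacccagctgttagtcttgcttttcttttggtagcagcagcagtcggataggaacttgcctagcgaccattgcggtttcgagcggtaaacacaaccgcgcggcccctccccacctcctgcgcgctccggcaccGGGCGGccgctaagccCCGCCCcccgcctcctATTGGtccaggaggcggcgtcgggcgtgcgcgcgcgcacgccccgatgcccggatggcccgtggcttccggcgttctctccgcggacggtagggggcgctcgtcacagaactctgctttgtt
Both strands of every window were searched for 11 motifs, and matches of 1 motif may overlap, as 2 of the 4 GC boxes of Hnrnpu do. Over all 32851 windows of 27025 genes, the GC box GGGCGG was held by 35.7%, the CCAAT box CCAAT by 37.4% and the E-box CACGTG by 7.15%. The AP-1 site TGANTCA was held by 7.81%, the NRF1 site, GCGCA and GCGC with any 1 base between them, by 4.60%, the YY1 site AAGATGGC by 2.75% and the ETS site CCGGAAGT by 3.89%. The TATA box TATAAA was held by 13.6%, the TEAD site ACATTCC by 3.85%, the cAMP response element TGACGTCA by 1.79% and the C/EBP site TTGCGCAA by 0.183%. Kdm5c held 13 CpG, a CCAAT box, an AP-1 match and a YY1 match. Hnrnpu held 41 CpG and 4 GC boxes, Ddx21 30 CpG and 1 GC box, and Mdm2 35 CpG, 2 GC boxes and 1 CCAAT box. Rrm2 held 40 CpG, 2 GC boxes and 1 CCAAT box. Stag3 held 30 CpG and 1 match each to the GC box, the CCAAT box, the E-box and the NRF1 site. A match is a string of letters and not a measured binding site.

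Nuclear counts were 1088968, 1524867 and 2525925 in the Kdm5c siRNA libraries, against 1274689, 1325428, 1197512 and 1097388 in the scramble libraries. Mitochondrial peaks took most reads, 86.7%, 86.8% and 78.8% with Kdm5c siRNA and 87.5% to 91.4% with scramble, and the arms did not overlap. Replicate 4 of Kdm5c siRNA stood apart, with the deepest nuclear coverage and the lowest mitochondrial share. Normalised counts, used below, are counts scaled by the effective size of each library relative to their mean. The median tested peak had 28.4 counts per library, and a count of 0 allows up to 3 counts. Pearson correlations of log2 CPM across peaks were 0.866 to 0.898 within the Kdm5c siRNA arm, 0.850 to 0.867 within scramble and 0.850 to 0.883 between arms. These describe peaks, which are not independent replicates.

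The Kdm5c promoter was open in both arms, with a 684-base peak at chrX:152232538-152233222 that overlaps the printed window. It had 56.6, 45.5 and 46.5 normalised counts with Kdm5c siRNA, against 43.9, 48.9, 49.0 and 36.2 with scramble. The arms overlapped, with a log2 fold change of 0.13 (SE 0.24, adjusted p = 0.98, edgeR quasi-likelihood test). siRNA acts on the transcript, so accessibility at this promoter is no check of the knockdown, and no transcript was measured in these libraries.

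The authors gave a gene to 10131 nuclear peaks (27.3%), which form the promoter class, naming 9363 genes. Of 7917 such peaks whose own gene has a start in the RefSeq table, 96.0% lay within 1 kb of it. Of the other 26920 peaks, 14295 lay inside a coding gene, 3628 within 10 kb of one and 8997 farther away. These other peaks had a median distance of 18.9 kb to the nearest start. The gene table does not separate exons from introns. Peaks spanned 92 to 4548 bases, with a median of 297.

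Promoter peaks were wider and stronger than the rest. Their median width was 669 bases and their median level 50.2 normalised counts, against 230 bases and 13.2 normalised counts for the other peaks. Per kb the contrast was smaller, 77.3 normalised counts per kb at promoters, against 60.8 inside genes, 60.5 within 10 kb and 56.3 farther away. Promoter peaks held 46.3% ± 0.975 (SD, n = 3) of nuclear counts with Kdm5c siRNA and 45.6% ± 0.399 (SD, n = 4) with scramble. The difference of 0.769 percentage points had p = 0.26 in a two-sided exact permutation test, whose smallest possible p over 35 arrangements is 0.0286. Peaks clustered in some genes. Snd1, a nuclease-domain coactivator, had 29 peaks inside it, Foxp1, a forkhead repressor, 27, and Itpr1, a calcium channel of the endoplasmic reticulum, 26. Cpm, a membrane carboxypeptidase, had 27 within only 57.9 kb, and it lies in a stretch described below.

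Promoters rich in CpG were open most often. A window was called open where a day 0 nuclear peak overlapped it by at least 1 base, and 34.3% of windows were. Of windows with 0 to 3 CpG, 2.59% were open, of those with 4 to 7 9.01%, with 8 to 20 48.7% and with 21 to 67 81.2%. Open windows had a median of 23 CpG and 62.7% GC, against 4 CpG and 48.7% GC in closed windows. The GC box, bound by Sp1-like factors, was present in 69.5% of open and 17.9% of closed windows. Matches for NRF1, an activator of genes for mitochondrial proteins, were present in 11.6% of open and 0.932% of closed windows, and ETS matches in 9.30% and 1.06% of open and closed windows. The TATA box, AP-1 and TEAD sites ran the other way. The TATA box was present in 5.55% of open and 17.8% of closed windows, the AP-1 site in 4.79% of open and 9.39% of closed windows, and the TEAD site in 2.43% of open and 4.59% of closed windows. The YY1 site, which holds no CpG either, was more frequent in open windows, at 4.84% of open and 1.66% of closed windows. The CCAAT box hardly separated them, at 38.9% of open and 36.6% of closed windows. The separate parts of motifs and CpG number were not tested.

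**Figure D1:**
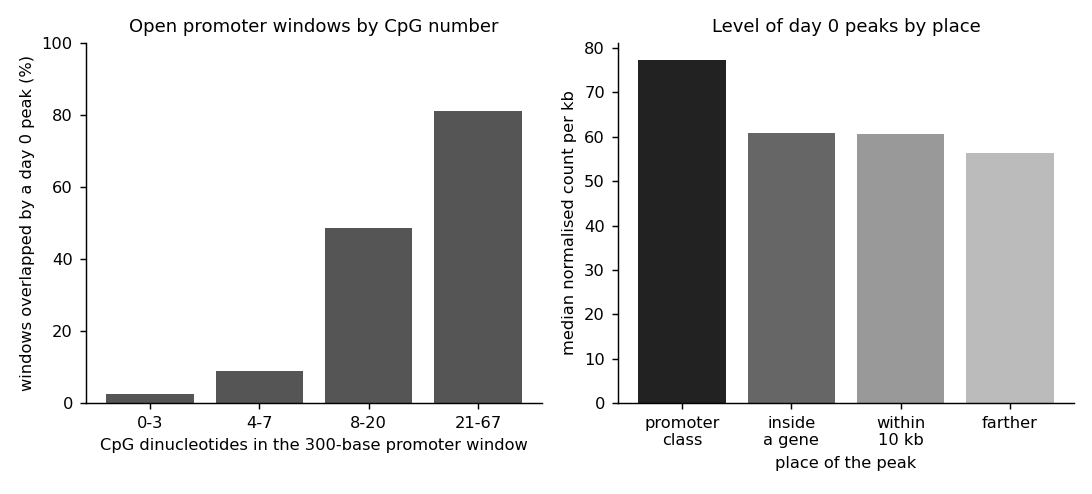
Left, the percent of RefSeq promoter windows overlapped by a day 0 nuclear peak, by the number of CpG in the window. It is 2.59% in the lowest class and 81.2% in the highest. Right, the median normalised count per kb of nuclear peaks by their place, 77.3 at promoters and 56.3 to 60.8 elsewhere.

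Median differences between arms were small in every CpG class. The median log2 fold change of tested peaks at open windows was -0.03 with 21 to 67 CpG, 0.00 with 8 to 20, 0.03 with 4 to 7 and 0.00 with 0 to 3. Among motif classes the median ran from -0.11 for the 29 tested peaks with a C/EBP match to 0.06 for the 233 with a TEAD match. These are descriptions of classes and carry no test.

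The mix of promoters and distal peaks differed by chromosome. Chromosome 6 had 5.81 other peaks per promoter peak, chromosome 5 had 4.26 and chromosome 1 had 3.48. Chromosome 11 had 1.40, chromosome X 1.42 and chromosome 9 1.51. The promoter level ran in a partly similar order, with medians of 97.0 normalised counts per kb on chromosome 5, 95.5 on chromosome 6 and 91.5 on chromosome 19, against 64.6 on chromosome 13 and 64.2 on chromosome X. Medians of the other peaks spanned only 55.2 to 64.6 per kb over the numbered chromosomes and X.

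**Figure D2:**
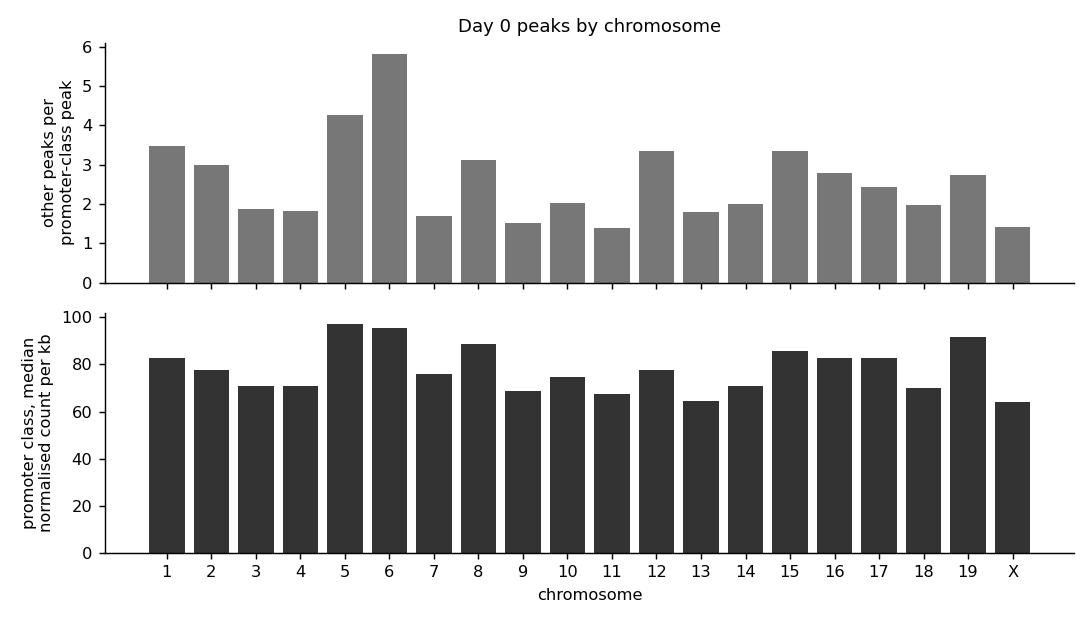
Top, other peaks per promoter peak on chromosomes 1 to 19 and X. Bottom, the median normalised count per kb of promoter peaks on the same chromosomes. Chromosome 6 is highest at the top at 5.81, and chromosome 5 at the bottom at 97.0.

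Some peaks exceeded the rest by orders of magnitude. The densest lay at chr2:98666247-98667321, with 40216 normalised counts per kb, beside one at chr2:98665058-98665206 with 22547 and one at chr2:98662237-98662953 with 11866. None of these 3 lay within 10 kb of a coding gene, nor did peaks at chrX:143483004-143483110 with 11324 per kb and at chr9:35305216-35305591 with 9300.1. On chromosome 17 a peak at chr17:39843033-39847099 had 10859 per kb, and the neighbouring promoter-class peak of AY036118 had 9652. Peaks inside Chl1, a neural adhesion molecule, and inside Cdk8, a kinase of the Mediator complex, had 7754 and 4008 per kb. The counting of reads that map to several places was not given in the sources used here.

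A long block of chromosome 10 stood out in another way. In windows of 500 kb with at least 5 peaks, limits set after seeing the data, the one at chr10:117500001-118000000 held 12.7 times the median count per kb. Its neighbour at chr10:117000001-117500000 held 7.96 times, that at chr10:118500001-119000000 held 5.77 times and a more distant one at chr10:107000001-107500000 held 6.29 times. The block holds Mdm2, the ubiquitin ligase that restrains p53. Its promoter peak had 7376, 7378 and 7111 normalised counts with Kdm5c siRNA, against 6899.6, 6551, 6814 and 6209 with scramble. The Kdm5c siRNA libraries were above all scramble libraries, and the log2 fold change was 0.14 (SE 0.10, adjusted p = 0.91, edgeR quasi-likelihood test). At 3005 normalised counts per kb Mdm2 had the second densest promoter-class peak. Promoter-class peaks of Slc35e3, Cpm and Cpsf6, a cleavage factor of RNA 3′ ends, were also among the 12 densest, with 2223, 967 and 585 per kb. The first 2 of these overlapped the start of their gene, while that of Cpsf6 lay 2549 bases from it. The rest of the 12 densest were the peaks of AY036118, the microRNA gene Mir6236, Lyz2, M6pr, a receptor that carries lysosomal enzymes, Sfi1, a centrosome protein, the pseudogenes Fau-ps2 and Kifc5c-ps, and another peak of Cpsf6. A window at chr2:77500001-78000000, around the splicing factor gene Cwc22, held 4.07 times the median. Windows at chr9:35000001-35500000, chr2:5000001-5500000, chr5:146000001-146500000 and chr11:109000001-109500000 held 6.84, 4.68, 4.29 and 4.26 times.

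Most markers of the labelled cell type had an open promoter. Of 15 preadipocyte or fibroblast markers, 10 had a promoter peak. In order of level these were Thy1, Col1a1, Twist1, Col1a2, Pdgfrb, Vim, Twist2, S100a4, Col3a1 and Prrx1. Levels ran from 135 normalised counts per kb at Thy1 to 41.2 at Prrx1, beside a median of 80.4 over all tested genes. Counting any peak inside the gene or within 10 kb, 13 of these 15 had one, but so did 7 of 8 bone or cartilage, 6 of 8 epithelial, 5 of 7 endothelial, 5 of 8 neural and 4 of 7 mature adipocyte markers. The promoter levels of the preadipocyte or fibroblast markers summed to 833 to 901 normalised counts per kb with Kdm5c siRNA and 789 to 880 with scramble. Pdgfra, Cd34, Ly6a, Dlk1 and Tcf21 had no promoter-class peak. Of 7 mature adipocyte markers only Lep had one, while Adipoq, Fabp4, Plin1, Cidec, Cfd and Retn had none. No promoter-class peak was found for the markers of skeletal muscle, epithelium, hepatocytes or pluripotent cells. Single markers of bone (Dmp1), endothelium (Kdr), neural cells (Tubb3) and blood (Lyz2) had one. Lyz2, a lysozyme of macrophages, had 524 per kb, but it lies in the chromosome 10 block, and Ptprc, Spi1, Cd68 and Itgam had none.

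A filter on low counts left 26656 peaks for the test between the arms. Of these, 2 (0.0075%) passed an adjusted p of 0.05, both lower with Kdm5c siRNA. In bulk nuclei, openness in fewer cells and a lower level in each cell cannot be told apart. Adjusted p-values are Benjamini-Hochberg values over all tested peaks, from the edgeR quasi-likelihood test. At an unadjusted p under 0.05 there were 1634 peaks (6.13%), 699 higher (2.62%) and 935 lower (3.51%). Thus 42.8% of them were higher with this scaling, and 55.5% with nuclear totals alone, so the direction of the balance follows the scaling. The arms did not overlap at 1677 peaks (6.29%), 834 higher (3.13%) and 843 lower (3.16%). Most differences were small. The median log2 fold change was -0.01 and 88.4% of peaks lay within 1.5-fold, against 95.9% of promoter-class peaks. At promoters, 454 of 9372 tested peaks (4.84%) had an unadjusted p under 0.05, 174 higher (1.86%) and 280 lower (2.99%), and 0 were called. The median SE of a log2 fold change was 0.31, and 0.22 at promoters.

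**Figure D3:**
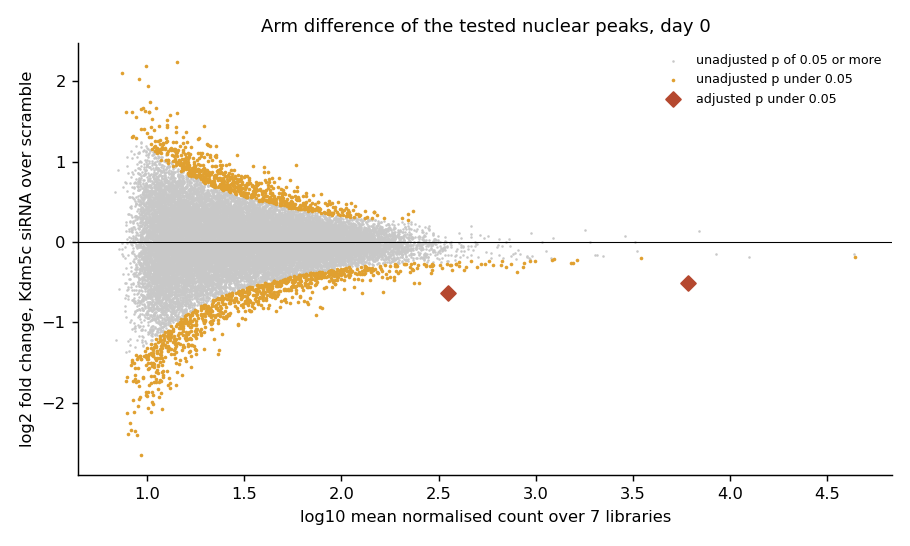
Each point is 1 of the 26656 tested peaks, with the log10 mean normalised count across and the log2 fold change of Kdm5c siRNA over scramble upward. Orange marks an unadjusted p under 0.05, and the 2 diamonds, both below 0, are the called peaks.

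The first called peak lay inside Myo3a, an unconventional myosin of sensory hair cells, at chr2:22588662-22590179. It had 275, 368 and 172 normalised counts with Kdm5c siRNA, against 362, 396, 431 and 481 with scramble. Replicate 2 of Kdm5c siRNA lay inside the scramble range, and replicate 4 was lowest of all. The log2 fold change was -0.64 (SE 0.13, adjusted p = 0.019, edgeR quasi-likelihood test). The second, at chr1:24611595-24616143, was the widest peak of all at 4548 bases, over the annotated pseudogenes Gm10222 and Gm10925, at a place where the mouse genome is known to carry a nuclear copy of mitochondrial sequence. It had 6054, 5426 and 3246 normalised counts with Kdm5c siRNA, against 6168, 6313, 5986 and 9472 with scramble. Here replicate 1 of Kdm5c siRNA lay inside the scramble range. The log2 fold change was -0.51 (SE 0.10, adjusted p = 0.019, edgeR quasi-likelihood test).

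Neither call held in every fit. For each of both peaks a two-sided exact permutation test on log2 values gave p = 0.0571. The mitochondrial to nuclear count ratio was 6.50, 6.55 and 3.71 with Kdm5c siRNA, against 7.0, 7.33, 7.67 and 10.7 with scramble. Both peaks were lowest in the library with the lowest ratio and highest in the library with the highest, and the part of mitochondrial reads in their difference was not tested. Without replicate 4 of Kdm5c siRNA the log2 fold changes were -0.36 at Myo3a and -0.28 at the chromosome 1 peak, both with adjusted p = 0.96 in edgeR. Leaving out scramble replicate 2, 3 or 4 also left 0 calls in edgeR, and DESeq2 on all 7 libraries made 0 calls.

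No other peak passed the test, and the peaks with the smallest p in each direction at named genes are given as values. They were ranked by p of this same contrast, so arms that do not overlap among them add no support. Among lower peaks, one inside Cwc22, a factor that links splicing to the exon junction complex, lay at chr2:77903372-77903600. It had 66.1, 32.5 and 50.8 normalised counts with Kdm5c siRNA, against 57.4, 109, 104 and 97.9 with scramble. The arms overlapped through replicate 1 of each, and the log2 fold change was -0.91 (SE 0.20, adjusted p = 0.053, edgeR quasi-likelihood test). S100a10 encodes the partner of annexin A2 at the cell membrane, and its peak lay at chr3:93554815-93555833. It had 62.0, 56.6 and 49.2 normalised counts with Kdm5c siRNA, against 77.7, 103, 104 and 105 with scramble. All Kdm5c siRNA libraries were below all scramble libraries, with a log2 fold change of -0.82 (SE 0.19, adjusted p = 0.080, edgeR quasi-likelihood test). Hnrnpu encodes a nuclear RNA-binding scaffold protein, and its promoter, printed above, lies in the peak at chr1:178337273-178338123. It had 56.6, 43.6 and 45.4 normalised counts with Kdm5c siRNA, against 77.7, 99.9, 77.2 and 71.1 with scramble. The arms did not overlap, and the log2 fold change was -0.77 (SE 0.20, adjusted p = 0.36, edgeR quasi-likelihood test).

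The other lower peaks of that ranking included 3 in the chromosome 10 block. They lay inside Nup107, a nuclear pore subunit, inside Cpm and inside Slc35e3, with log2 fold changes of -0.64, -0.51 and -0.51. Near Tmem125 the normalised counts were 68.7, 56.6 and 41.5 with Kdm5c siRNA, against 77.7, 94.4, 121 and 83.1 with scramble. A peak inside Fam83a had the largest log2 difference of the lower ones, -1.39 (SE 0.37). Peaks inside Mepe, a bone matrix phosphoglycoprotein, Foxk1, a forkhead repressor, and Amotl1, an angiomotin that binds YAP, had log2 fold changes of -0.75, -0.70 and -0.58. At Tmem125, Fam83a, Mepe, Foxk1 and Amotl1 all Kdm5c siRNA libraries were below all scramble libraries, as at 3.16% of all tested peaks.

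Among higher peaks, one inside Mrtfb, a coactivator of serum response factor, had the smallest p, at chr16:13350885-13351058. It had 37.7, 25.1 and 16.4 normalised counts with Kdm5c siRNA, against 3.38, 7.77, 9.80 and 0 with scramble. The arms did not overlap, the counts were low, and the log2 fold change was 2.24 (SE 0.52, adjusted p = 0.080, edgeR quasi-likelihood test). A peak inside Camk2d, a calmodulin-dependent kinase subunit, had 28.3, 33.4 and 30.6 normalised counts with Kdm5c siRNA, against 9.0, 18.9, 4.90 and 12.1 with scramble. Its log2 fold change was 1.44 (SE 0.38, adjusted p = 0.39, edgeR quasi-likelihood test). Ddx21 encodes an RNA helicase of the nucleolus. Its promoter peak at chr10:62601998-62602723 had 66.1, 48.3 and 55.7 normalised counts with Kdm5c siRNA, against 25.9, 22.2, 42.9 and 32.2 with scramble. The arms did not overlap, and the log2 fold change was 0.87 (SE 0.25, adjusted p = 0.53, edgeR quasi-likelihood test).

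The rest of the higher ranking was mixed in function. Peaks near Egln1, the prolyl hydroxylase that marks hypoxia-inducible factor for decay, and inside Lhx6, a homeobox factor of interneurons, had log2 fold changes of 2.19 and 1.30. Peaks inside Dnm3, a dynamin, and Styk1, a kinase-like membrane protein, had 1.19 and 1.08. Values of 0.69 and 0.60 stood at Nrn1, a neurite growth factor, and inside Xpnpep1, an aminopeptidase. At these 6 genes all Kdm5c siRNA libraries were above all scramble libraries, as at 3.13% of all tested peaks. At Jun and near Zfp316 the log2 fold change was 0.79 at each, and the arms overlapped. The Jun peak had 99.8, 39.0 and 54.1 normalised counts with Kdm5c siRNA, against 36.0, 46.6, 22.1 and 37.5 with scramble.

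**Figure D4:**
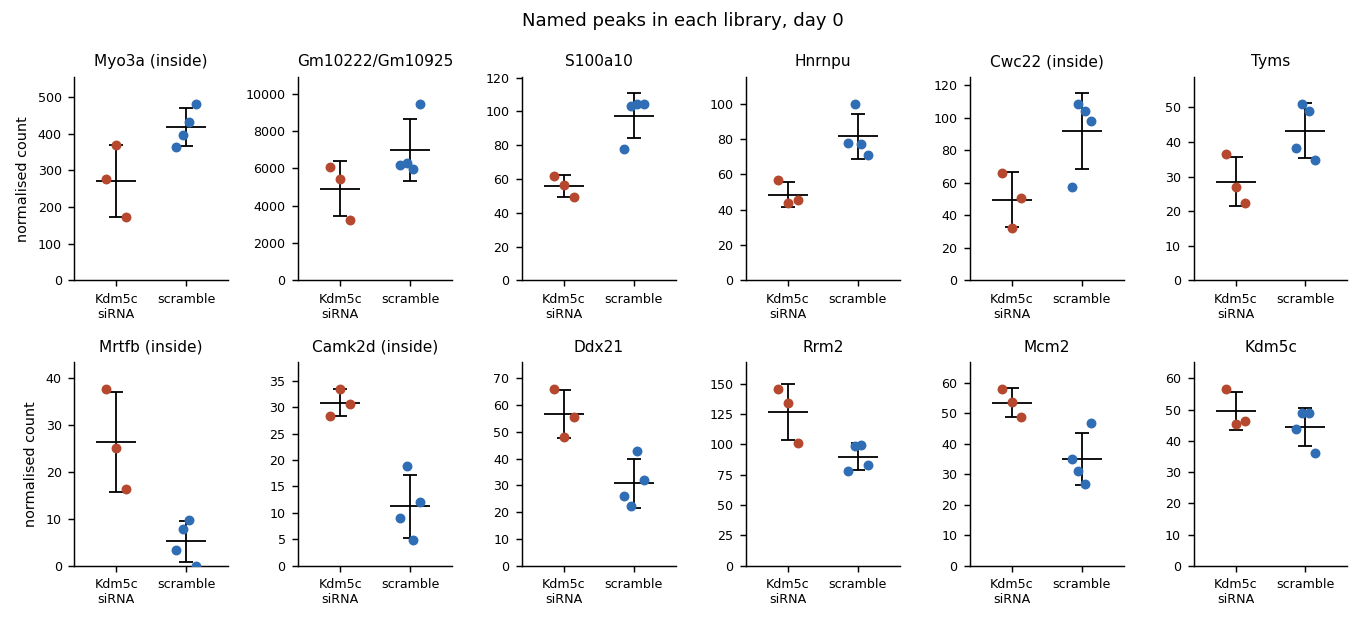
Normalised counts of 12 peaks, 1 point per library, with Kdm5c siRNA on the left and scramble on the right of each panel, and bars for the mean ± SD (n = 3 and n = 4). Arms overlap at Myo3a, the chromosome 1 peak, Cwc22, Tyms and Kdm5c, and do not at S100a10, Hnrnpu, Mrtfb, Camk2d, Ddx21, Rrm2 and Mcm2.

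Each listed gene was represented by its authors' peak with the highest mean count. Over the 23 lists, 298 of 432 genes had a promoter-class peak, 289 were tested, and 0 were called. At an unadjusted p under 0.05 there were 16 (5.54%), 10 higher and 6 lower, beside 4.81% of 8933 tested genes with an authors' peak, 168 higher and 262 lower. That share is near the background. Arms without overlap were found at 14 higher and 5 lower of the 289, beside 226 higher and 272 lower of the 8933. The median log2 fold change of the listed genes was 0.00, and -0.01 over all genes.

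Genes that write or remove the mark Kdm5c acts on showed no called change. Of 7 genes for H3 lysine 4 demethylases 5 were tested, and 0 had an unadjusted p under 0.05. Their log2 fold changes were -0.07 at Kdm5a, 0.21 at Kdm5b, 0.13 at Kdm5c, -0.13 at Kdm1a and 0.12 at Kdm1b. Kdm5d, the Y-linked relative, had no peak of its own name. Of 17 methyltransferase complex genes 13 were tested, 10 with values below 0, with a median of -0.12. The lowest was Cxxc1, a CpG-binding subunit, at -0.29, and the highest Paxip1, a subunit of the MLL3 and MLL4 complexes, at 0.22. Of 18 partners of KDM5 complexes 16 were tested, with a median of 0.05. Rest, the repressor of neuronal genes, had 0.07, Hdac1 -0.11 and Ezh2, the polycomb methyltransferase, 0.04. L3mbtl2 and E2f6, both members of a polycomb-like repressor complex, had 0.58 and -0.50, each with an unadjusted p above 0.05.

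Few germline and neuronal genes had a promoter-class peak. Lack of one does not show a closed promoter, since 4.90% of the other peaks on placed chromosomes also overlapped a RefSeq start. Of 20 germline genes 3 had a promoter-class peak and 1, Stag3, a meiotic cohesin subunit, was tested. D1Pas1 and Dazl had none. The Stag3 peak at chr5:138279809-138280456 also overlaps Gpc2, so its counts cannot be given to 1 gene. It had 97.1, 87.3 and 89.6 normalised counts with Kdm5c siRNA, against 67.5, 61.1, 55.1 and 73.7 with scramble. All Kdm5c siRNA libraries were above all scramble libraries, with a log2 fold change of 0.50 (SE 0.19, adjusted p = 0.68, edgeR quasi-likelihood test). Of 11 neuronal genes 2 had a promoter-class peak, and the tested one, Syn1, a synaptic vesicle protein, had 0.26.

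Adipogenic factors had values on both sides of 0. Of 22 genes 15 were tested, with a median of 0.01. Cebpb and Cebpd, which act first, had log2 fold changes of 0.03 and -0.03, and Cebpa and Pparg, which act later, 0.18 and -0.26. Only Zfp467, a zinc finger cofactor, had an unadjusted p under 0.05. It had 43.1, 47.3 and 54.1 normalised counts with Kdm5c siRNA, against 24.8, 45.5, 28.2 and 25.5 with scramble. The arms overlapped through scramble replicate 2. Of 24 mature adipocyte and lipid genes 13 were tested, and 0 had an unadjusted p under 0.05. Fasn, the fatty acid synthase, had 0.03, Scd1, a desaturase, -0.11 and Plin4, a lipid droplet coat protein, 0.32. Of 21 preadipocyte and anti-adipogenic genes 12 were tested, and Foxo1, a forkhead factor that restrains the programme, had -0.55, with overlapping arms. Wnt5a, a signalling ligand, had -0.62 with an unadjusted p of 0.084. Of 14 tested AP-1 and immediate early genes only Jun had an unadjusted p under 0.05. Fos had 0.21, Egr1 -0.22 and Myc -0.30. Of 11 tested YAP and TEAD pathway genes only Yap1, the coactivator itself, did, at 0.43, with overlapping arms.

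Among cell cycle genes, 4 of 20 tested DNA replication genes (20%) had an unadjusted p under 0.05, 2 higher and 2 lower. Over all tested genes the share was 4.81%, and 0 of the 20 were called. Arms did not overlap at 2 higher and 1 lower of the 20, beside 226 higher and 272 lower of 8933 tested genes. Rrm2, a subunit of ribonucleotide reductase, had 146, 134 and 101 normalised counts with Kdm5c siRNA, against 77.7, 98.8, 99.3 and 83.1 with scramble. The arms did not overlap, and the log2 fold change was 0.47 (SE 0.16, adjusted p = 0.68, edgeR quasi-likelihood test). Mcm2, a subunit of the replicative helicase, had 58.0, 53.8 and 48.6 normalised counts with Kdm5c siRNA, against 34.9, 31.1, 27.0 and 46.9 with scramble, also without overlap. Tyms, the thymidylate synthase, and Ccne1, cyclin E1, had log2 fold changes of -0.65 and -0.31, and the arms overlapped at Tyms. Ccne1 had 127, 117 and 109 normalised counts with Kdm5c siRNA, against 141, 139, 146 and 153 with scramble, and the arms did not overlap. Other helicase subunits had values of 0.30 at Mcm6, 0.08 at Mcm4, -0.07 at Mcm3 and -0.21 at Mcm5. Of 19 tested mitosis genes 1, Cdc20, an activator of the anaphase-promoting complex, had an unadjusted p under 0.05, at 0.44, with overlapping arms. Of 15 tested inhibitor, Rb and E2F genes 0 did, with values of 0.31 at Rb1 and 0.30 at E2f8.

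Of 23 tested nuclear genes of the respiratory chain 3 (13.0%) had an unadjusted p under 0.05, beside 4.81% of all tested genes. Cox4i1 and Cox5b, subunits of cytochrome oxidase, had log2 fold changes of 0.55 and 0.52, and Uqcrfs1, the Rieske protein of complex III, had -0.82. The Cox4i1 peak also overlaps Emc8, and the arms overlapped there. The Cox5b peak had 53.9, 60.3 and 60.1 normalised counts with Kdm5c siRNA, against 41.6, 38.9, 36.8 and 45.6 with scramble, without overlap. Of 16 tested genes for the upkeep of mitochondrial DNA 0 had an unadjusted p under 0.05, with -0.22 at Tfam, which packages that DNA, and -0.14 at Polg, its polymerase. Of 19 tested cytosolic ribosomal protein genes 1, Rpl5, did, at -0.50, with overlapping arms. Of 18 tested collagen and matrix genes 1, Timp2, a protease inhibitor, did, at -0.63, with overlapping arms. Col1a1, Col1a2 and Col3a1 had 0.30, 0.17 and -0.06.

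Genes that sense or process foreign RNA were examined because both arms received siRNA. Of 16 tested interferon and RNA sensor genes 1, Tlr3, a sensor of double-stranded RNA, had an unadjusted p under 0.05, at 0.44. Ifih1, another sensor, also had 0.44. Stat2 and Irf9, which carry the interferon signal, had -0.18 and -0.15. Of 10 tested RNA interference genes 0 did, with -0.10 at Ago2 and 0.09 at Dicer1. The count was also 0 for 11 tested p53 targets, 10 insulin, glucocorticoid and cAMP response genes, 5 imprinted genes and 9 X-linked genes that escape inactivation or have a Y copy. Among the last were Kdm6a at -0.12, Ddx3x at -0.13 and Usp9x at 0.18.

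Groups of peaks, some chosen after seeing the data, are described by library, as the median log2 deviation from the scramble mean. The 208 tested peaks outside promoters in the 4 chromosome 10 windows, the distant one included, had 0.07, -0.24 and -0.33 with Kdm5c siRNA replicates 1, 2 and 4, against -0.06, -0.03, 0.09 and -0.03 with scramble. Replicate 1 was within the scramble range, and the other two libraries were below it. Their median log2 fold change was -0.17, with 1 higher and 51 lower at an unadjusted p under 0.05, beside -0.01 and 6.13% over all tested peaks. Without replicate 4 of Kdm5c siRNA the median was -0.07, with 2 higher and 13 lower, and without replicate 1 it was -0.29, with 0 higher and 104 lower. The 15 promoter-class peaks of the same windows had a median of -0.06, and 0.01 without that replicate 4. The ratio of other to promoter-class counts in these windows was 4.58, 3.97 and 3.95 with Kdm5c siRNA, against 4.57, 4.87, 4.97 and 4.78 with scramble.

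The same 2 libraries were low in further groups, of which the 50 densest peaks are not separate from the chromosome 10 windows. Of those 50 peaks, 21 lay outside the high-count stretches of chromosomes 2 and 10. Fitted without the stretches, these 21 had a median log2 fold change of -0.19, with 0 higher and 11 lower at an unadjusted p under 0.05. The 50 densest peaks had 0.05, -0.26 and -0.37 with Kdm5c siRNA, against -0.11, 0.02, 0.08 and 0.08 with scramble, with a median log2 fold change of -0.20. The 77 tested peaks on unplaced contigs had -0.01, -0.28 and -0.31 with Kdm5c siRNA, against -0.18, 0.07, 0.02 and 0.05 with scramble, with a median of -0.24. Of each group 0 were higher and 18 lower at an unadjusted p under 0.05, 36% of the 50 densest and 23.4% of those on contigs. Without replicate 4 of Kdm5c siRNA the lower counts were 3 and 4 and the medians -0.10 and -0.18, and without replicate 1 the medians were -0.32 and -0.35. The 2924 tested peaks among the narrowest 25.1% of peaks had a median of -0.10, with 33 higher and 123 lower, 5.34% of them, beside 6.13% of all tested peaks. Within the Kdm5c siRNA arm the medians of the chromosome 10 windows, the 50 densest peaks and the contigs were lower the deeper the library. The scramble arm did not show this order, and its deepest library, replicate 2, had its highest contig median, 0.07. Replicates 1, 2 and 4 of Kdm5c siRNA had mitochondrial shares of 86.7%, 86.8% and 78.8%. The parts of depth and of mitochondrial share in these medians were not tested.

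**Figure D5:**
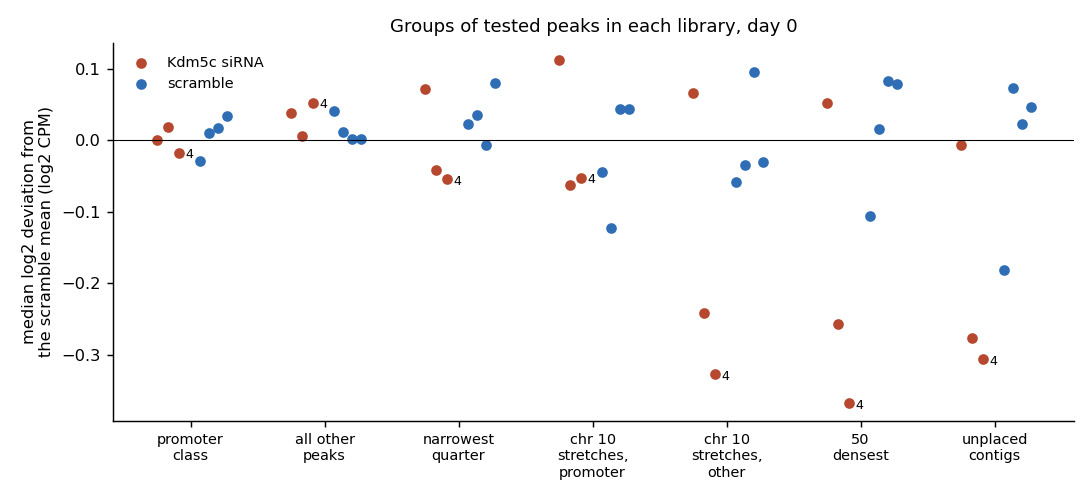
Median log2 deviation from the scramble mean for 7 groups of peaks, 1 point per library, Kdm5c siRNA left of scramble, with replicate 4 of Kdm5c siRNA marked 4. That library sits at -0.33 in the chromosome 10 windows outside promoters, at -0.37 in the 50 densest peaks and near 0 for promoters at large.

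Shares of nuclear counts, summed over groups of peaks or chromosomes, were compared between the libraries of the arms. Of 29 measures, these shares and the percent of peaks with 0 counts, compared by two-sided exact permutation tests, 0 had a Benjamini-Hochberg adjusted p under 0.05. With a smallest possible p of 0.0286, most of the 29 would have to reach it together before any adjusted p could fall under 0.05, so a count of 0 says little. The smallest unadjusted p was 0.0571, for chromosome 16, at 3.35% ± 0.00528 (SD, n = 3) with Kdm5c siRNA and 3.30% ± 0.0318 (SD, n = 4) with scramble, an adjusted p of 0.58 by exact permutation. Peaks farther than 10 kb from a coding gene took 24.3%, 22.8% and 22.5% with Kdm5c siRNA, against 23.9%, 24.5%, 24.5% and 23.6% with scramble. The 1000 most abundant peaks took 27.4%, 25.9% and 24.7% with Kdm5c siRNA, against 26.4%, 27.4%, 27.7% and 26.9% with scramble. In both measures replicates 2 and 4 of Kdm5c siRNA were below all scramble libraries and replicate 1 was not. Chromosome X, where Kdm5c lies, took 1.73% ± 0.0863 (SD, n = 3) with Kdm5c siRNA and 1.68% ± 0.0587 (SD, n = 4) with scramble. When libraries were thinned to 1088968 counts, 0.991%, 1.20% and 0.977% of peaks had 0 counts with Kdm5c siRNA, against 1.05%, 0.737%, 0.758% and 0.928% with scramble. Without thinning these were 0.991%, 0.605% and 0.103% with Kdm5c siRNA, against 0.756%, 0.464%, 0.621% and 0.918% with scramble.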

How the data were processed

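ATAC-seq counts per peak were taken from 7 libraries of day 0, 3 of Kdm5c siRNA and 4 of scramble. The authors deposited whole-number counts of reads per peak, not normalised. A second table the authors deposited held normalised signal, which equalled the raw count divided by 1 constant per library within a tolerance of 1e-08, and it was used only for gene names. The submitters' processing notes name the GRCm38 build and list DESeq2 1.24.0, HTSeq 0.9.1, MACS2 2.1.1, Bowtie2 2.2.9 and cutadapt 2.3. Roles of these tools, whether peaks were called on pooled libraries, and how duplicates, multiply mapped reads and the transposase offset were handled were not given in the sources used here. Coordinates are printed as deposited, without knowledge of whether starts begin at 0 or 1.

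The 3 mitochondrial peaks were left out before normalisation. Peaks passing filterByExpr, 26656 of 37051, entered edgeR 4.0.16 (R 4.3.3) and its quasi-likelihood F test, with TMM factors and no covariate. The standard error is the log2 fold change over the square root of F. Fold changes are Kdm5c siRNA over scramble, relative to the bulk of nuclear peaks. DESeq2 1.42.0 and limma voom 3.58.1 were alternatives. Library measures were compared with exact permutation tests in scipy 1.17.1 under Python 3.11.15, adjusted over 29 measures. The fit was tested on simulated counts with the peak means and depths of these libraries. It called 29% of 100 peaks changed 2-fold and 87% of 100 changed 4-fold, and 6 of its 122 calls were false. All simulated peaks had the same dispersion, and simulated libraries of an arm differed only in depth. These rates therefore need not hold for the measured libraries. The changed peaks were not drawn from those with the lowest counts.

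Same-numbered libraries of the 2 arms had correlations of deviations between -0.035 and -0.004, and the other pairs between -0.019 and 0.043. No sign of pairing by number was seen, but with so few libraries and low counts these correlations could miss it. Peaks named are the called ones, up to 12 with the smallest p in each direction at a named gene, the Kdm5c peak, the densest and the p under 0.05 members of each list, the densest and widest peaks, and marker genes. Members, gene lists and markers were chosen with earlier results of these data known. The limits of the high-count windows, the 50 densest peaks, the unplaced contigs and the chromosome 10 groups were chosen after seeing the data. Gene names were matched to a RefSeq table of GRCm38.p6, which held 98.9% of the authors' names. A few results that the rule would name are not reported here.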

Additional observations from a re-analysis of the deposited data

Results flagged for a closer look

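In the scramble arm 106 sets of 4 values were checked for 1 library far from the others, with the gap to its nearest neighbour over the whole range above the 95% critical value for 4 values. Chance alone flags about 1 in 20 sets, and 13 were flagged. The called peak at chr1:24611595-24616143 had a ratio of 0.906, with replicate 4 high, and S100a10 had 0.951, with replicate 1 low. Among other peaks between the arms, Amotl1 had 0.840 with replicate 1 high, Uqcrfs1 0.855 with replicate 3 high and Zfp467 0.835 with replicate 2 high. Among dense peaks, that of Cpsf6 at chr10:117379899-117380170 had 0.936 with replicate 3 high. The peak at chr17:39843033-39847099 had 0.867 and AY036118 had 0.866, both with replicate 1 low, and the share of counts on chromosome 17 had 0.846 with the same library low. Rpl7 had 0.872 with replicate 3 low, Kdm6a 0.923 and Mavs 0.987 with replicate 2 high. The share of counts in the widest 25% of peaks had 0.866 with replicate 3 high.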

How the results depend on the processing

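The count of called peaks, 2 in the fit reported, was 2 with RLE size factors and without the high-count stretches, 3 with nuclear totals alone and 3 with no filter. It was 1 among peaks above the median abundance, where 339 peaks were higher and 482 lower at an unadjusted p under 0.05, and 1 with mitochondrial peaks included. It was 0 with a replicate block, and whether the numbers pair the libraries is not known. It was 0 with DESeq2 (833 higher and 1246 lower at an unadjusted p under 0.05) and 25 with limma voom. Without replicate 4 of both arms, an alternative chosen after seeing the data, it was 0. Leaving out 1 library gave 0 to 17 calls in edgeR (612 to 773 higher and 732 to 1139 lower at an unadjusted p under 0.05), 17 of them without replicate 1 of Kdm5c siRNA and 6 when scramble replicate 1 was left out. The causes were not tested. The median log2 fold change of promoter peaks was 0.019 and that of other peaks 0.032 with nuclear totals alone. That of other peaks was also -0.024 with no filter, -0.030 with DESeq2 and -0.020 to 0.017 leaving out 1 library. The narrowest peaks had -0.21 above the median abundance, -0.060 with nuclear totals, -0.17 with no filter, -0.18 with DESeq2, -0.037 without replicate 4 of both arms, and -0.18 to -0.052 leaving out 1 library. The 50 densest peaks had -0.073 without replicate 4 of both arms and -0.32 to -0.10 leaving out 1 library. Other peaks of the chromosome 10 windows had -0.29 to -0.074 and those on unplaced contigs -0.35 to -0.17 leaving out 1 library. The 23 gene lists together had 12 to 23 members with an unadjusted p under 0.05 over all settings.

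With shares taken of all counts, mitochondrial peaks included, 25 of 29 measures passed (smallest adjusted p = 0.033, exact permutation), on a scale that the mitochondrial share enters. The differences, Kdm5c siRNA minus scramble, were then 2.32 percentage points for promoter peaks, 1.20 inside genes, 3.08 for the widest peaks and 0.165 for chromosome 16. They turned to 0.984 farther than 10 kb, 1.09 for the 1000 most abundant, 0.716 for the top 1% of peaks, 0.246 for the narrowest peaks, 0.217 for the high-count stretches and 0.330 for chromosome 17. Leaving out 1 library, the widest peaks ran from -0.0047 to 0.495 and peaks inside genes from -0.018 to 0.262. Peaks lying at most 1 kb from either end of a coding gene, in place of the promoter class, held 46.7% of counts, against 45.9%. The promoter to other ratio of median levels was 3.79 per peak, against 1.31 per kb.

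Of the named peaks, 15 with log2 fold changes between -0.09 and 0.30 changed sign under some setting. Without replicate 4 of both arms Cenpf had 0.0035, Lyz2 0.023, Ezh2 -0.013, Mavs 0.093, Cycs 0.014, Junb -0.027 and the peak on contig JH584304.1 -0.15. With the replicate block Tcf7l2 had -0.010, Gm20783 -0.010, Dgat1 -0.0067, Cycs 0.025 and Chl1 0.074. With nuclear totals Cycs had 0.022, Tead4 0.024 and Chl1 0.030, with no filter 0.013, 0.017 and 0.023, and with DESeq2 0.0090, 0.012 and 0.018, and Chl1 had 0.0016 with mitochondrial peaks included. Leaving out 1 library, ranges were -0.0021 to 0.45 at Col1a1, -0.21 to 0.0083 at Cenpf, -0.18 to 0.012 at Lyz2, -0.10 to 0.26 at Peg3, -0.0097 to 0.14 at Tcf7l2, -0.017 to 0.10 at Gm20783, -0.0066 to 0.12 at Ezh2 and -0.19 to 0.13 at Mavs. They were -0.0099 to 0.074 at Tomm40, -0.069 to 0.14 at Dgat1, -0.11 to 0.085 at Cycs, -0.11 to 0.19 on JH584304.1, -0.085 to 0.074 at Tead4, -0.091 to 0.12 at Junb and -0.089 to 0.068 at Chl1. The other named peaks kept their sign, with 25 gains and 16 losses of a call among settings. With 28.4 counts and an SE of 0.31 at the median tested peak, large differences at single peaks could miss the threshold. The value of 2.24 on the log2 scale at Mrtfb (SE 0.52, adjusted p = 0.080, edgeR) also missed it. That peak had low counts and was picked by its p in this contrast, so its value may be too large.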
